A study of Mus musculus with 10 samples.

Results

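The genes described are 9 genes of the osteoblast lineage, taken by name from the 22548 genes of the deposited table. They are the transcription factor genes Runx2, Sp7, Dlx3 and Dlx5, the osteocalcin genes Bglap, Bglap2 and Bglap3, and the matrix protein genes Postn and Sparc. The rule used their names alone, the names were proposed with earlier results of these data known, and all 9 passed the filter on low counts. Their read counts were examined in osteocytes from 5 control mice (No MM, numbered 1 to 5) and from 5 mice bearing Vk12598 cells, a murine Vk*MYC myeloma line (MM, numbered 6 to 10). All were C57BL/6 males with a labelled age of 8 weeks, and the sources used here do not say whether that was the age at injection or at harvest. The authors' methods give 6 to 8 weeks as the age of the mice they purchased. In the MM group, Vk12598 cells had been injected into the femur and bone lesions were examined 6 weeks later. The No MM mice had not received myeloma cells, and the authors' methods describe control mice as given the same volume of PBS by injection. Osteocytes were released from dissected bone pieces, after the marrow had been removed, by repeated rounds of collagenase and EDTA. This isolation has no sorting step, and osteoblasts, lining cells and remaining marrow cells can be carried along. Total RNA was sequenced as 76-base paired ends, with 1 stranded library per mouse.

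Runx2 and Sp7 (osterix) act one after the other to commit mesenchymal progenitors to the osteoblast fate, and loss of either gene leaves the skeleton without bone. Dlx3 and Dlx5 encode homeodomain factors that bind regulatory DNA of bone matrix genes, and Runx2 and Dlx factors bind the osteocalcin promoter. Osteocalcin is a small vitamin K-dependent protein that osteoblasts and osteocytes secrete into bone matrix and into blood. In the mouse it is encoded by neighboring copies of 1 gene. Periostin (Postn) is a matricellular protein of periosteum and other collagen-rich tissue, and osteonectin (Sparc) is an abundant collagen-binding protein of bone matrix.

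The osteocalcin genes are so alike that reads can fit more than 1 of them, which bears on every value of Bglap and Bglap2. All 3 are on chromosome 3, minus strand, at chr3:88383501-88384464 for Bglap, chr3:88377736-88378699 for Bglap2 and chr3:88368616-88372743 for Bglap3 (GRCm38, GENCODE M21). The coding sequences, without the stop codon, are shown to make the differences visible. Each has 285 bases. Capitals in Bglap mark the 13 positions at which either copy differs from it, and capitals in Bglap2 and Bglap3 mark the bases that differ from Bglap.
Bglap: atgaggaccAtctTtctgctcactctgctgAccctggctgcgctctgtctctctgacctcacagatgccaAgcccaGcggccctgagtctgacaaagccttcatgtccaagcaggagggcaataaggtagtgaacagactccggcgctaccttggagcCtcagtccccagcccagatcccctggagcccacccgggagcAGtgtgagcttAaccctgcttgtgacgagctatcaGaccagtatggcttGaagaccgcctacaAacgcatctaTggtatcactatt
Bglap2: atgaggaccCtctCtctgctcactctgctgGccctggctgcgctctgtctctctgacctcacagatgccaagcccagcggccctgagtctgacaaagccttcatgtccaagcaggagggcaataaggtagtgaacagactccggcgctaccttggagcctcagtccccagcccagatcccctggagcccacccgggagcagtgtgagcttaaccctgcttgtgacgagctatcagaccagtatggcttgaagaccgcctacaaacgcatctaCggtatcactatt
Bglap3: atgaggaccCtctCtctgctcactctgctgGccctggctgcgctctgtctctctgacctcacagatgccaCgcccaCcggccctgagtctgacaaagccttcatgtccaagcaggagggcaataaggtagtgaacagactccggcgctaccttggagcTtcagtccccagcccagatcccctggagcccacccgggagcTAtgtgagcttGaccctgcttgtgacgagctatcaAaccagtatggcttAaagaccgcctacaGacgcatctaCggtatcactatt
Bglap and Bglap2 differed at 4 coding bases (98.6% identity), Bglap and Bglap3 at 13 (95.4%), and Bglap2 and Bglap3 at 9 (96.8%). Differences between Bglap and Bglap2 lie near the start of the coding sequence, apart from 1 near its end. Of the 365 windows of 76 bases in the Bglap transcript, 240 (65.8%) occur without a mismatch in the Bglap2 transcript. In the shortest Bglap3 transcript, of 717 bases, 9 of them (2.47%) occur, as do 56 of the 396 windows (14.1%) of the Bglap2 transcript. How the authors' counting treated reads that fit 2 copies is not given in the sources used here, so the sum over the 3 genes is reported beside each gene. If such reads were left out of the counts, the sum is too low as well.

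Between 31099174 and 39466332 reads were counted per library. The control libraries were not alike. Immunoglobulin genes took 26.6% of the counts in No MM 3 and 29.0% in No MM 4, against 0.637% to 3.86% in the other 8 libraries. Markers of the labelled cell type, the osteocyte genes Dmp1, Mepe, Phex, Sost, Fgf23, Pdpn and Fam20c, were all detected, and their summed level was 345 to 2503 CPM (counts scaled to library size by TMM) in No MM and 423 to 1813 CPM in MM. No MM 3 had 461 CPM and No MM 4 had 345 CPM of these markers. Plasma cell markers summed to 9265 CPM in No MM 3 and 9283 CPM in No MM 4, and to 583 to 1266 CPM in the other 8 libraries. Unlike the other markers of this list, Mzb1 was not highest in No MM 3 and No MM 4. It was at 62.9 and 65.5 CPM there, below No MM 1 (87.6 CPM) and No MM 2 (70.4 CPM). None of these 7 plasma cell markers was at 0 in any library. All 7 were lower in MM at an unadjusted p under 0.05 by edgeR, where 10.3% of all genes were, and none after adjustment. Without No MM 3 and No MM 4, only 1 of the 7 was lower at that threshold. Their median log2 fold change went from -2.10 to -0.38. The osteoclast marker sum was 1026 CPM in No MM 3 and 825 CPM in No MM 4, against 2520 to 13787 CPM elsewhere. Neutrophil markers, at 6860 and 8063 CPM in these 2 libraries and 9813 to 31808 CPM elsewhere, and erythroid markers, at 889 and 2907 CPM and 7291 to 57830 CPM elsewhere, were also lowest there. In bulk RNA, fewer cells of a type and less RNA per cell cannot be told apart.

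Runx2, Sp7, Dlx3 and Dlx5 did not differ between MM and No MM beyond the spread between mice. Runx2 (chr17:44495987-44814797, minus strand) was read at 89.5, 71.2, 23.4, 27.7 and 139 CPM in No MM 1 to 5 and at 153, 88.3, 62.9, 59.7 and 89.1 CPM in MM 6 to 10. The lowest values were those of No MM 3 and No MM 4, and the 5 MM values fell among those of the other No MM mice, apart from a higher value in MM 6 and lower values in MM 8 and MM 9. Its mean was 70.2 ± 47.8 CPM in No MM and 90.6 ± 37.6 CPM in MM (SD, n = 5 each). In edgeR's quasi-likelihood test with Benjamini-Hochberg adjustment over 16186 genes, the log2 fold change of Runx2, MM over No MM, was 0.37 (SE 0.47, adjusted p = 0.737). Supt3, Runx2os1 and Runx2os2 overlap the Runx2 locus, in whole or in part, on the opposite strand. Whether strand was used in counting is not given in the sources used here. Their counts were 318 to 905, 22 to 114 and 0 to 21 per library, against 725 to 5923 for Runx2.

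Sp7 (chromosome 15, minus strand), which acts downstream of Runx2, had the widest range of these factors over the 10 libraries. It was at 162, 93.2, 19.5, 15.6 and 187 CPM in No MM 1 to 5 and at 209, 102, 58.0, 65.7 and 122 CPM in MM 6 to 10. No MM 3 and No MM 4 were again the lowest, and the lowest of the other 8 libraries was 2.97 times the higher of these 2. The log2 fold change of Sp7 was 0.22 (SE 0.66, adjusted p = 0.897).

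Dlx3 (chr11:95120119-95125296, plus strand) was at 30.6, 31.6, 5.396, 5.01 and 31.2 CPM in No MM 1 to 5 and at 42.5, 28.4, 11.5, 17.4 and 17.9 CPM in MM 6 to 10. The No MM mice other than 3 and 4 lay between 30.6 and 31.6 CPM, and 4 of the 5 MM mice were below them. The log2 fold change of Dlx3 over all mice was 0.18 (SE 0.57, adjusted p = 0.904). Dlx5 (chr6:6877805-6882085, minus strand) was at 13.6, 21.4, 5.07, 5.77 and 20.8 CPM in No MM 1 to 5 and at 35.6, 20.0, 12.5, 14.7 and 14.0 CPM in MM 6 to 10. MM 6 was highest for both Dlx genes. Dlx5 had the largest fold change of the 9 genes, 0.54 on the log2 scale (SE 0.46, adjusted p = 0.599).

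**Figure D1:**
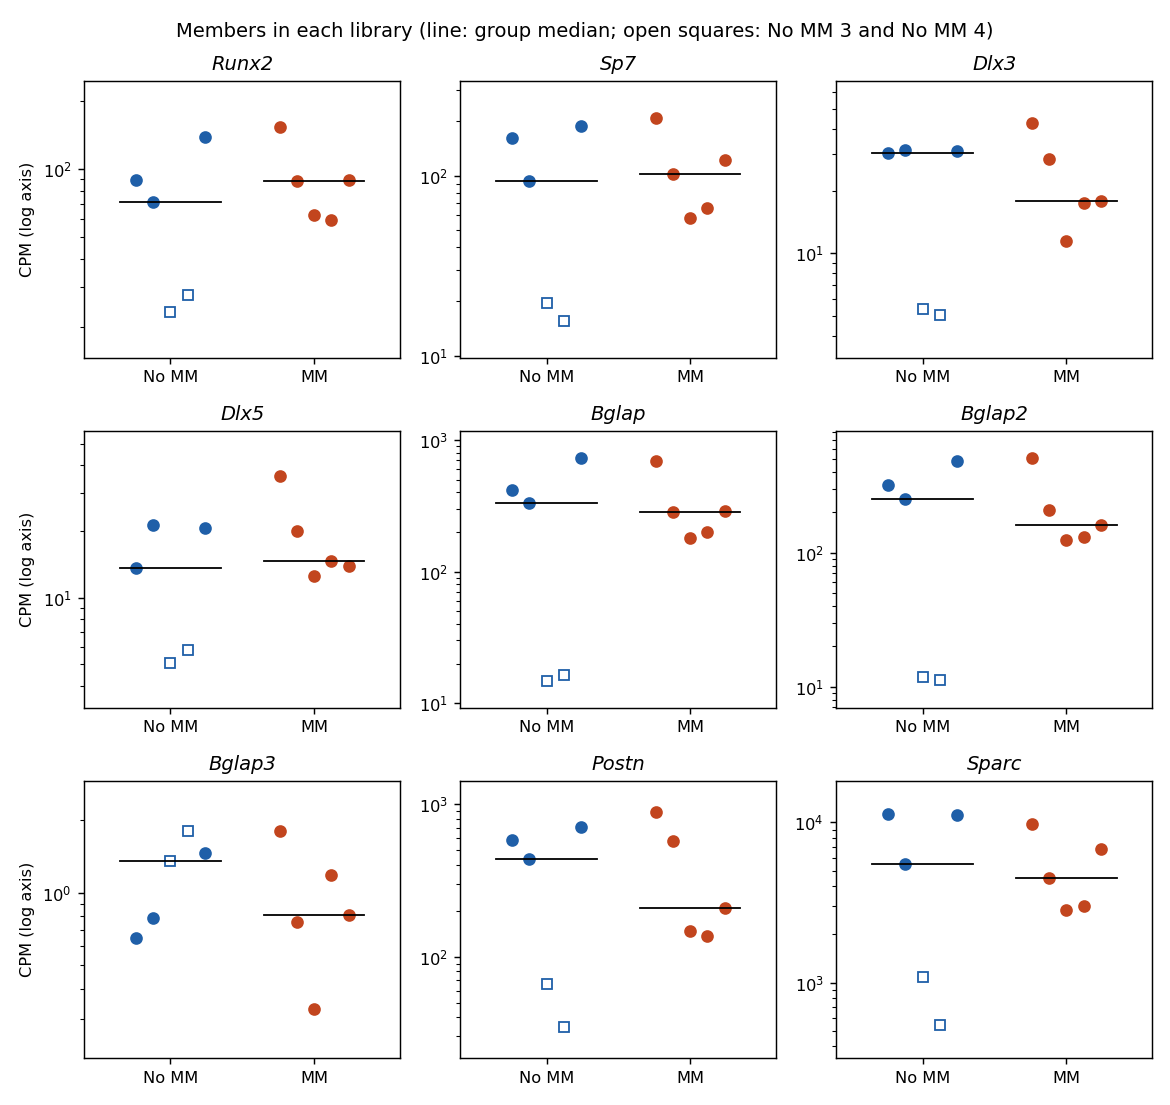
CPM of each gene on a log axis, 1 point per mouse, for No MM (blue) and MM (orange), with a line at the group median and open squares for No MM 3 and No MM 4. In every panel except that of Bglap3 the open squares are the lowest points, and the remaining No MM points overlap the range of MM.

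Osteocalcin was the member with the widest gap inside the control group, and its difference between MM and No MM was within the spread between mice. Bglap was at 416, 333, 14.8, 16.5 and 728 CPM in No MM 1 to 5 and at 694, 285, 180, 199 and 286 CPM in MM 6 to 10. The lowest of the other 8 libraries, MM 8, was 10.9 times the higher value of No MM 3 and No MM 4. The same factor was 2.16 for Runx2, 2.12 for Dlx3, 2.17 for Dlx5 and 4.15 for Col1a1, a chain of type I collagen. These libraries were set apart by their immunoglobulin reads, so the factors are given as a description.

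Bglap2 was at 320, 251, 11.7, 11.1 and 481 CPM in No MM 1 to 5 and at 506, 209, 123, 131 and 161 CPM in MM 6 to 10. The same 2 libraries were the lowest, and No MM 5 and MM 6 the highest, as for Bglap. The log2 fold change was 0.12 (SE 0.90, adjusted p = 0.961) for Bglap and 0.07 (SE 0.90, adjusted p = 0.979) for Bglap2. Reads of the 3 osteocalcin genes together numbered 810 and 863 in No MM 4 and No MM 3 and 11994 to 49433 in the other 8 libraries. Their sum had a log2 fold change of 0.10 (SE 0.90, adjusted p = 0.969).

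Bglap3, the copy farthest from Bglap in sequence, was detected at a low level and did not share that gap. Its counts were 17, 28, 42, 50 and 60 in No MM 1 to 5 and 70, 28, 14, 43 and 31 in MM 6 to 10. These correspond to 0.648, 0.788, 1.36, 1.81 and 1.47 CPM and to 1.81, 0.757, 0.331, 1.19 and 0.807 CPM. No MM 4 was at the top of the range rather than at the bottom, and 3 counts correspond to 0.0709 to 0.114 CPM at this depth. The log2 fold change of Bglap3 was -0.31 (SE 0.46, adjusted p = 0.775).

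The matrix protein genes also overlapped between the groups, with their lowest values in No MM 3 and No MM 4. Postn (chromosome 3, plus strand) was at 584, 436, 66.1, 34.7 and 705 CPM in No MM 1 to 5 and at 884, 572, 148, 137 and 208 CPM in MM 6 to 10. MM mice divided into a pair at or above 572 CPM and 3 mice at or under 208 CPM, and the latter lay between the low and the high No MM libraries. The log2 fold change of Postn was 0.10 (SE 0.81, adjusted p = 0.968).

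Sparc (chromosome 11, minus strand) was the most abundant member. It was at 11266, 5457, 1078, 543 and 11161 CPM in No MM 1 to 5 and at 9831, 4515, 2858, 3016 and 6788 CPM in MM 6 to 10. MM 7, MM 8 and MM 9 lay between the low and the high No MM libraries, and MM 6 and MM 10 among the high ones. The log2 fold change of Sparc was -0.13 (SE 0.78, adjusted p = 0.952).

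None of the 9 members passed an adjusted p of 0.05, and none of them passed an unadjusted p of 0.05 (lowest unadjusted p = 0.262 by edgeR, for Dlx5). Across all 16186 genes tested, 0% passed the adjusted threshold by edgeR and 14.1% the unadjusted one, 3.81% as higher and 10.3% as lower in MM. DESeq2 called 1.34% of its 16768 genes at an adjusted p under 0.05, and no member (adjusted p = 0.577 to 0.974). For no member did the values of the groups fail to overlap, against 1.41% of all genes. Of the 9 members, 7 had a log2 fold change above 0, where 47.3% of all genes did. The members other than Bglap3 moved together from mouse to mouse and are not separate observations. Bglap3 had a Pearson's r of log2 CPM of -0.24 to -0.066 with them over all libraries. The exact permutation test of each member on log2 CPM (two-sided, 5 mice against 5, smallest possible p = 0.00794) gave p = 0.246 to 0.643.

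Without No MM 3 and No MM 4, the point estimates moved to the other side of 0 for Runx2, Sp7, Dlx3, Bglap, Bglap2 and Postn, and none passed the test. In that fit of 3 No MM against 5 MM mice, the log2 fold change was -0.16 for Runx2 (SE 0.34), -0.42 for Sp7 (SE 0.42), -0.42 for Dlx3 (SE 0.37) and 0.05 for Dlx5 (SE 0.36). It was -0.59 for Bglap (SE 0.46), -0.65 for Bglap2 (SE 0.48), -0.01 for Bglap3 (SE 0.53), -0.57 for Postn (SE 0.62) and -0.80 for Sparc (SE 0.50). Sparc had the lowest edgeR adjusted p of the members, 0.644, and no member passed an unadjusted p of 0.05, where 5.89% of all 16600 genes did, 3.37% as lower in MM. Of the 9 members, 8 were below 0, where 51.6% of all genes were. The direction for these 6 genes changed with the 2 control libraries left out, and the part of plasma cell RNA in this was not tested.

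**Figure D2:**
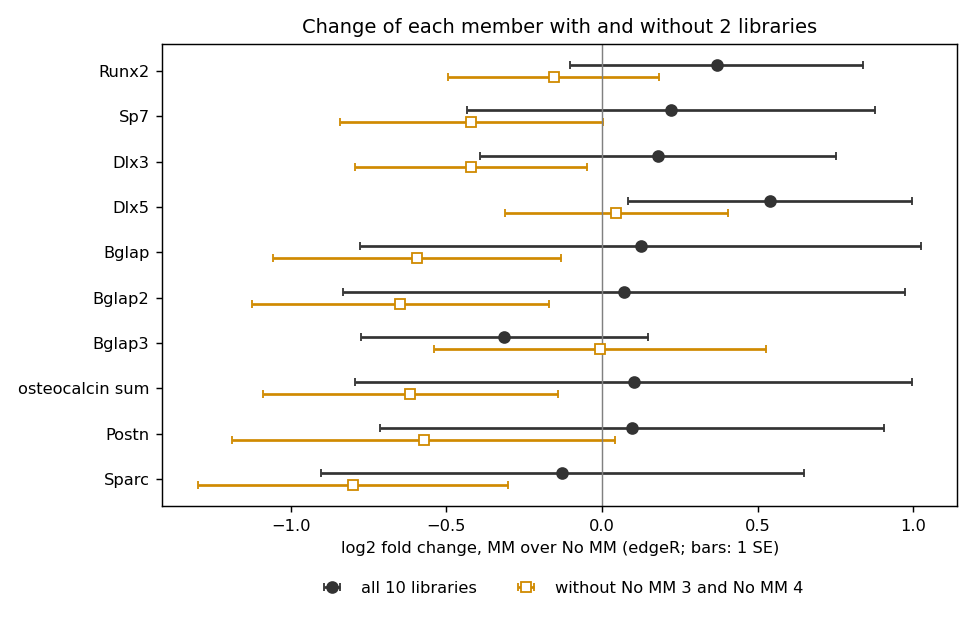
Log2 fold change of each member and of summed osteocalcin, MM over No MM, with bars of 1 SE, from all 10 libraries (filled circles) and without No MM 3 and No MM 4 (open squares). All members except Bglap3 shift to the left without the 2 libraries, Bglap from 0.12 to -0.59 and Sparc from -0.13 to -0.80.

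Per kilobase of gene length, Sparc stood first and Bglap3 last. The median RPKM over the 10 libraries (CPM per kilobase of the gene length in the table) was 2168 for Sparc, 650 for Bglap, 393 for Bglap2, 73.9 for Postn and 33.5 for Sp7. It was 12.3 for Runx2, 10.1 for Dlx5, 8.89 for Dlx3 and 0.486 for Bglap3. Each gene was above the next in this order in all 10 libraries, except that Runx2 was above Dlx5 in 6 of 10 and Dlx5 above Dlx3 in 9 of 10. Runx2 and Dlx5 were thus not separated beyond the spread between libraries. The order of Bglap and Bglap2 depends on how shared reads were assigned. Their place against the other members depends on whether such reads were counted at all.

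Each member was also set against type I collagen, the main protein of bone matrix, as the log2 ratio of its count to the summed count of Col1a1 and Col1a2. Col1a1 ranged from 693 CPM in No MM 4 to 18661 CPM in MM 6. On this scale the transcription factors of No MM 3 and No MM 4 were higher than in the other 8 libraries, in contrast to their CPM. The ratio of Runx2 was -6.78 and -5.80 in No MM 3 and No MM 4 and -8.66 to -7.59 in the others. That of Sp7 was -7.04 and -6.63, against -7.86 to -7.44, and that of Dlx5 was -8.98 and -8.06, against -11.38 to -9.61. Bglap went the other way, with -7.44 and -6.55 in these 2 libraries and -6.44 to -5.57 in the others. Relative to collagen, then, No MM 3 and No MM 4 held more transcription factor reads and fewer Bglap reads than any other library. This did not divide factors from products. Sparc was also highest there, at -1.25 and -1.51, against -2.10 to -1.63, and Postn, at -5.28 and -5.47, lay within the range of the others. Bglap2 was at -7.77 and -7.12, and MM 10, at -7.17, was below No MM 4. The sum of the 3 osteocalcin genes was not set against collagen.

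Between the groups, the ratio to collagen was lower in MM for 7 members and higher for Bglap and Bglap2. The only unadjusted p under 0.05 was that of Sparc, with -1.69, -1.99, -1.25, -1.51 and -1.63 in No MM 1 to 5 and -2.08, -1.97, -2.10, -1.93 and -1.77 in MM 6 to 10. MM 7, MM 9 and MM 10 were above No MM 2, and all MM mice were below the other No MM mice. The difference was -0.36 (exact permutation test, two-sided, p = 0.0317, adjusted p = 0.286 over 9 members), and it was -0.20 without No MM 3 and No MM 4 (exact p = 0.143). For the other 8 members the adjusted exact p lay between 0.612 and 0.746. With the 7 osteocyte markers as the reference instead of collagen, the difference for Sparc was 0.45.

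**Figure D3:**
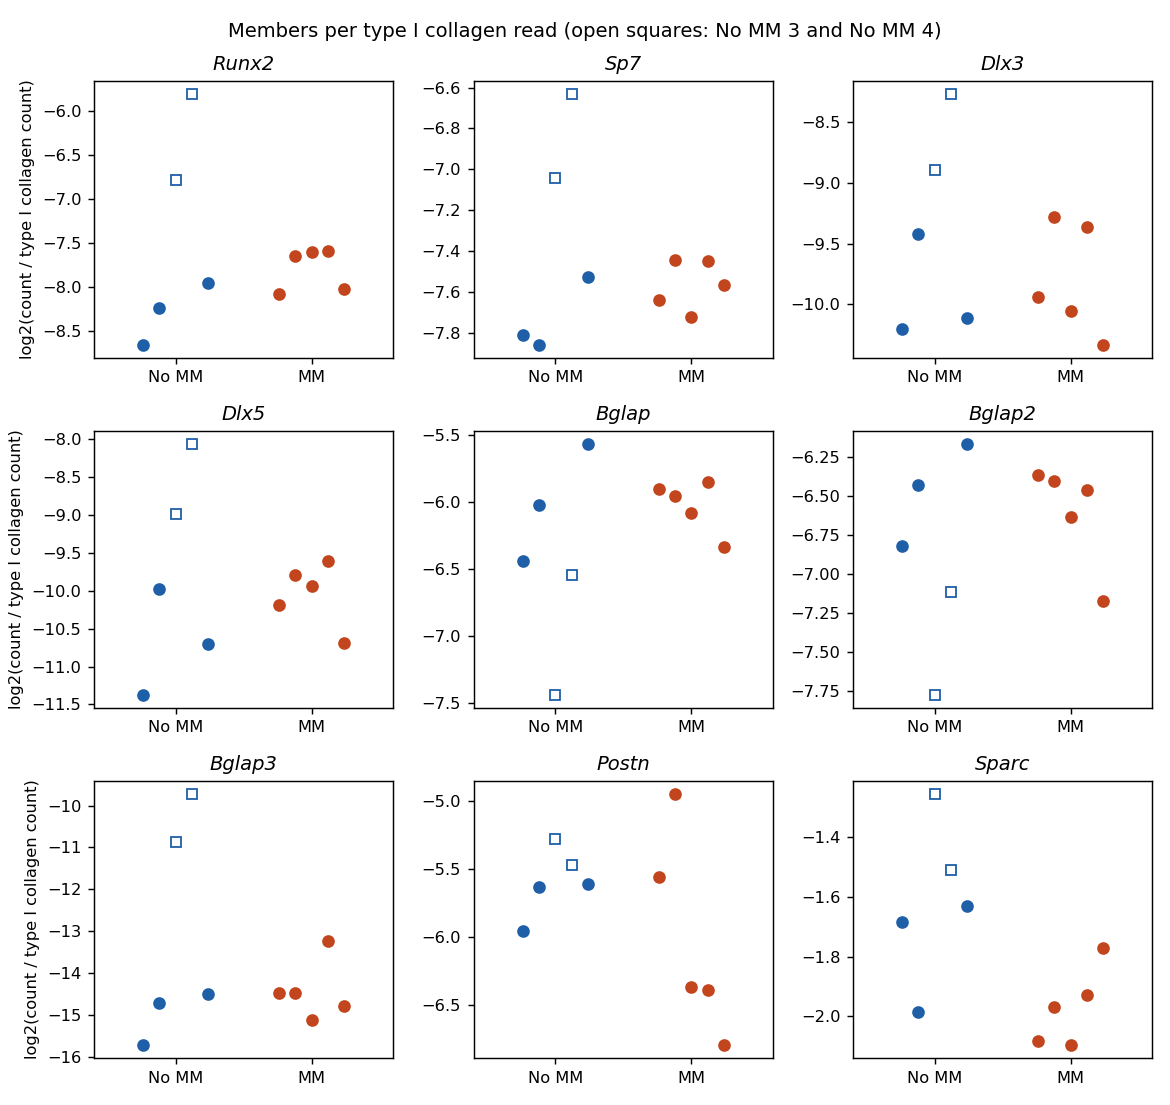
Log2 ratio of each member's count to the summed count of Col1a1 and Col1a2 in each mouse, for No MM (blue) and MM (orange), with open squares for No MM 3 and No MM 4. The open squares are the highest points for Runx2, Sp7, Dlx3, Dlx5, Bglap3 and Sparc and the lowest for Bglap.

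The division of osteocalcin reads among the 3 genes was steady for Bglap and Bglap2 and uneven for Bglap3. Bglap held 56.5%, 57.0%, 53.1%, 56.05% and 60.1% of the osteocalcin reads in No MM 1 to 5 and 57.8%, 57.6%, 59.3%, 60.1% and 63.9% in MM 6 to 10. The mean was 56.5% ± 2.52 in No MM and 59.7% ± 2.55 in MM (SD, n = 5 each). This difference of 3.20 percentage points exceeded the SD of either group and did not pass the test (exact permutation test, two-sided, p = 0.0794, adjusted p = 0.238 over 3 shares). Without No MM 5 the difference was 4.10 points (exact permutation test, adjusted p = 0.0476), and without No MM 3 and No MM 4 it was 1.88 points (exact p = 0.321). With any other single mouse left out, the adjusted p of this permutation test was 0.238 to 0.476.

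Bglap3 held 4.87% of the osteocalcin reads in No MM 3 and 6.17% in No MM 4, and 0.0878% to 0.359% in the other 8 libraries. Its own counts in these 2 libraries, 42 and 50, lay within the range of the others, so the higher share came with fewer reads of Bglap and Bglap2. Between the groups, the share of Bglap3 differed by less than the mice of one group did (two-sided exact permutation test, adjusted p = 0.50). Intervals for these shares would cover counting error only, since reads were not collapsed by molecule.

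**Figure D4:**
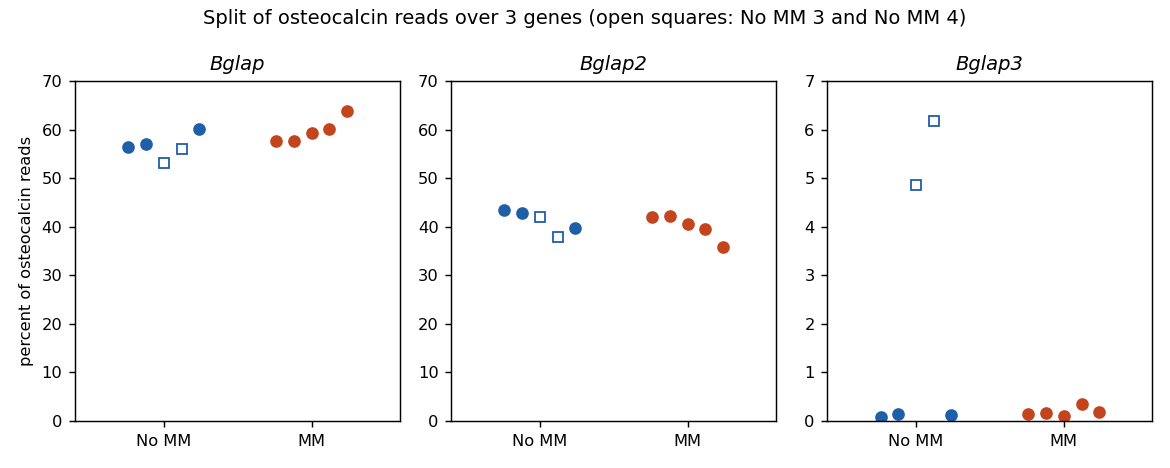
Percent of osteocalcin reads assigned to Bglap, Bglap2 and Bglap3 in each mouse, on separate axes from 0, for No MM (blue) and MM (orange), with open squares for No MM 3 and No MM 4. Bglap and Bglap2 keep to 53.1% to 63.9% and 35.9% to 43.4%, and the open squares stand apart only for Bglap3.

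Ratios between members put the factors beside their known target. Summed osteocalcin over Runx2, as log2 of the count ratio, was 3.04, 3.04, 0.25, 0.09 and 3.12 in No MM 1 to 5 and 2.97, 2.49, 2.27, 2.47 and 2.33 in MM 6 to 10. No MM 3 and No MM 4 had a far lower ratio than any other library, and each of the remaining No MM mice was above each MM mouse. Over all mice the difference was 0.60 (exact permutation test, two-sided, p = 0.444, adjusted p = 0.750 over 6 ratios). Without these 2 libraries it was -0.56 (exact p = 0.0357, the smallest that 3 mice against 5 can give, adjusted p = 0.107). Osteocalcin over Sp7 also was lowest in No MM 3 (0.51) and No MM 4 (0.92), against 1.87 to 2.69 elsewhere, and differed by -0.23 without them (exact p = 0.286).

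Dlx3 over Dlx5 was 1.17, 0.56, 0.09, -0.20 and 0.59 in No MM 1 to 5 and 0.25, 0.51, -0.13, 0.25 and 0.36 in MM 6 to 10. All No MM mice other than 3 and 4 were above all MM mice, as for osteocalcin over Runx2. The difference was -0.19 over all mice (exact permutation test, adjusted p = 0.750) and -0.53 without the 2 libraries (exact p = 0.0357, adjusted p = 0.107). Sp7 over Runx2, Postn over Sparc and osteocalcin over Sparc gave adjusted exact p values of 0.873, 0.873 and 0.476 over all mice. For osteocalcin over Sparc the mean was -3.97 ± 0.85 in No MM and -3.31 ± 0.35 in MM (SD, n = 5 each).

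With both groups pooled and No MM 3 and No MM 4 left out, every pair of members had a positive Pearson's r, of differing strength. Likeness within either group alone was not tested. Since No MM 3 and No MM 4 form a separate cluster, likeness is given over the other 8 libraries as a description without a test. These 8 differed in their markers of other cells, with erythroid sums of 7291 to 57830 CPM and neutrophil sums of 9813 to 31808 CPM. Osteoclast sums were 2520 to 13787 CPM, skeletal muscle sums 582 to 6279 CPM and chondrocyte sums 166 to 1622 CPM. The part of these differences in the likeness was not tested. Pearson's r of log2 CPM was 0.984 between Bglap and Bglap2, 0.966 between Sp7 and Sparc, 0.947 between Sp7 and Bglap and 0.939 between Runx2 and Bglap. The weakest relation was that of Dlx5 and Sparc, with 0.431. Bglap3 had 0.505 to 0.731 with the other members.

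**Figure D5:**
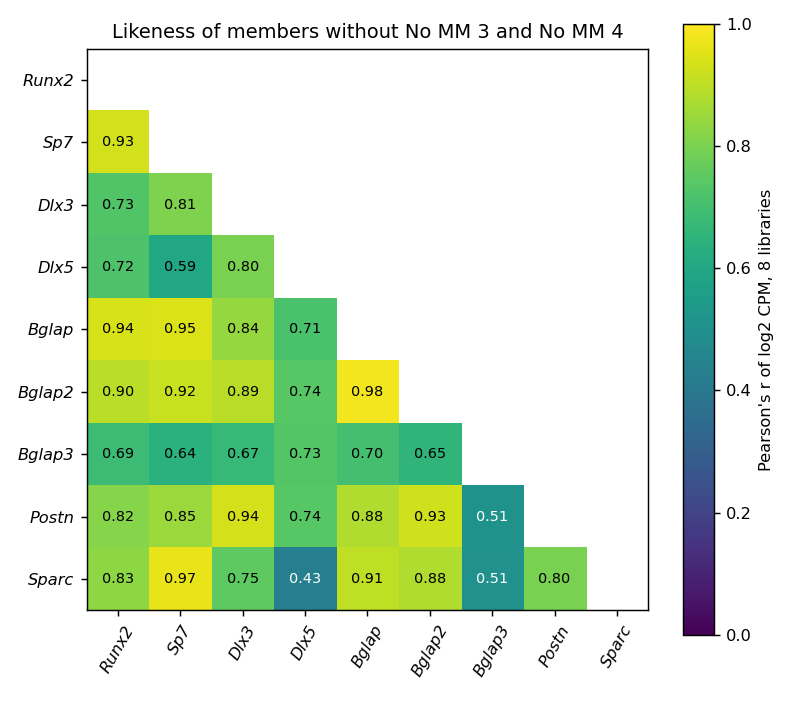
Pearson's r of log2 CPM for each pair of members over the 8 libraries without No MM 3 and No MM 4, on a color scale from 0 to 1. The highest value is that of Bglap with Bglap2, 0.984, and the lowest is that of Dlx5 with Sparc, 0.431.

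Among 14463 genes with a mean of at least 1 CPM, those with the highest r to each member over all 10 libraries were named, up to 3 a member. The nearest to Postn was Esr1, the estrogen receptor alpha gene (r = 0.992 over 10 libraries and 0.979 over 8), followed by Ibsp, which encodes bone sialoprotein (0.988 and 0.973), and Ttc23l (0.987 and 0.990). Near Dlx5 were Col25a1 (0.989 and 0.959) and Clmp (0.982 and 0.950). Nearest to Sp7 were Insc (0.994 and 0.984), Atp6v0d2 (0.994 and 0.989), which encodes a proton pump subunit of osteoclasts, and Tmem17. Sparc was nearest to Cpe, Gm266 and Atp6v1a, Runx2 to Sdk2, Slc2a13 and Gnptab, and Dlx3 to Fam69c, B4galnt3 and Gpx8.

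Bglap and Bglap2 had the same first neighbor, Lpar3, which encodes a receptor for lysophosphatidic acid (0.992 and 0.967 for Bglap, 0.991 and 0.953 for Bglap2). The next were Lclat1 and Kazald1 for Bglap and Tsc22d1 and Col13a1 for Bglap2. Bglap3 was nearest to Chrna1os (0.952 and 0.939), Fuk and Zfp647. The values over 10 libraries include the step between the 2 clusters, except for Bglap3, which lacks it.

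Of 38 other regulators of osteoblast transcription, 35 were tested, and none passed the adjusted threshold (edgeR). Their median log2 fold change was 0.18, and 0.04 without No MM 3 and No MM 4, where the median of all genes was -0.03 and -0.02. The only one with an unadjusted p under 0.05 was Jund, a subunit of AP-1, with a log2 fold change of -0.74 (SE 0.21, adjusted p = 0.315) and -0.60 without the 2 libraries. Over all genes and all libraries, 14.1% were under that unadjusted threshold, 10.3% as lower in MM. Jund was at 166, 114, 134, 177 and 77.2 CPM in No MM 1 to 5 and at 82.4, 90.1, 73.8, 83.4 and 70.4 CPM in MM 6 to 10. All MM values were below those of No MM 1 to 4, and No MM 5 lay among them. The largest positive fold changes were those of Fos (0.87, SE 0.45), which also encodes an AP-1 subunit, and Dlx6 (0.64, SE 0.43), the neighbor of Dlx5, and the other large negative one was that of the adipogenic receptor gene Pparg (-1.14, SE 0.67), which was 0.52 without the 2 libraries. Fos was then at 0.51 and Dlx6 at 0.18.

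All 26 osteoblast matrix and mineral genes were tested, and 20 of them had a fold change above 0, while without No MM 3 and No MM 4 the same number were below 0. Their median went from 0.14 to -0.45. Of all genes, 47.3% were above 0 with all libraries and 51.6% below 0 without these 2. P4ha1, a subunit of the collagen prolyl hydroxylase, was the only one with an unadjusted p under 0.05, at 67.1 to 124 CPM in No MM and 53.2 to 95.4 CPM in MM (log2 fold change -0.48, SE 0.22, adjusted p = 0.352 by edgeR). Of all genes, 14.1% were under that unadjusted threshold, 10.3% as lower in MM. Col24a1 (1.07, SE 0.59) and the proteoglycan gene Lum (1.02, SE 0.61) had the largest positive changes, and Fmod, which encodes fibromodulin, was at -0.28 (SE 0.57). Without No MM 3 and No MM 4 these were 0.48 for Col24a1, 0.48 for Lum, -0.65 for Fmod and -0.66 for P4ha1.

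Of the genes of osteocalcin carboxylation and regulation, 10 were tested, and none passed the adjusted threshold (edgeR). Vkorc1, the vitamin K epoxide reductase, was at 6.51, 4.08, 17.8, 11.4 and 4.56 CPM in No MM 1 to 5 and at 7.01, 5.30, 3.001, 3.39 and 3.28 CPM in MM 6 to 10. The 2 highest values belonged to No MM 3 and No MM 4, and the log2 fold change was -1.01 (SE 0.45, adjusted p = 0.346) with them and -0.22 without them. Ggcx, the carboxylase of Gla proteins, was at -0.48 (SE 0.28), Gas6, another Gla protein, at 0.84 (SE 0.55), and Ptprv, the osteoblast phosphatase gene known as Esp, at 0.91 (SE 0.48). Without No MM 3 and No MM 4 these were -0.15 for Ggcx, 0.34 for Gas6 and 0.67 for Ptprv.

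Among 16 tested relatives and partners of SPARC and periostin, 11 had a fold change below 0, with a median of -0.33. Of all genes, 47.3% were above 0, and their median was -0.03. Without No MM 3 and No MM 4, 13 of the 16 were below 0, with a median of -0.39, where 51.6% of all genes were below 0. Smoc2, which encodes a secreted SPARC relative, was at 23.96, 29.9, 323, 410 and 33.96 CPM in No MM 1 to 5 and at 58.4, 20.5, 14.9, 24.4 and 43.8 CPM in MM 6 to 10. Its fold change of -2.34 (SE 0.85, adjusted p = 0.315 by edgeR) thus rested on No MM 3 and No MM 4, and it was 0.13 without them. Smoc2 ran opposite to Sparc in these 2 libraries. Ctgf was at -0.65 (SE 0.42), and the integrin gene Itgb3 and the fibronectin gene Fn1 were at 0.48 (SE 0.41) and 0.37 (SE 0.40). Without No MM 3 and No MM 4 these were -0.96 for Ctgf, -0.013 for Itgb3 and -0.0040 for Fn1.

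Promoters of Bglap and Bglap3 are shown because these neighboring genes differed in how they followed the other members. Each stretch holds the 250 bases before a RefSeq start (GRCm38.p6, minus strand), at chr3:88384467-88384716 for Bglap and chr3:88372742-88372991 for the first of the 3 Bglap3 starts. Capitals mark matches to ACCACA or TAATTG on either strand.
Bglap: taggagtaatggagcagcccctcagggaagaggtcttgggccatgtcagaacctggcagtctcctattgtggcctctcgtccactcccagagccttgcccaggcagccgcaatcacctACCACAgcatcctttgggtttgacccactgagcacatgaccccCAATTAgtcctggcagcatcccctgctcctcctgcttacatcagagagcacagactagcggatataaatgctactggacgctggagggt
Bglap3: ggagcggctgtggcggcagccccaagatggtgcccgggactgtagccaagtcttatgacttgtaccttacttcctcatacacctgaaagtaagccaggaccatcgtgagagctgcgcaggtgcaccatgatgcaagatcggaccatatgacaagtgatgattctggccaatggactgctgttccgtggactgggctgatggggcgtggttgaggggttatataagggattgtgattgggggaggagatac
Letters at the core of sites for Runx (AACCACA), Sp (GGGCGG) and Dlx factors (TAATTA and TAATTG) were searched on both strands, and the shorter ACCACA, which AACCACA contains, was added after the promoters were seen. In the whole 300-base window of Bglap, ACCACA began at position -132 and TAATTG was found on the opposite strand at position -89 from the start. None of these letters was found in the window of the first Bglap3 start, but TAATTA was found at -96 of another Bglap3 start. One Postn start had TAATTG at 22 and, on the opposite strand, at -163, and Sparc had ACCACA at 35. The Runx2 promoter held AACCACA at 3 positions, -81, 22 and 30. Of 32851 promoters of this length, 5.27% held AACCACA, 16.8% ACCACA, 35.7% GGGCGG, 5.29% TAATTA and 8.00% TAATTG. Of the 9 members, Runx2, Bglap, Bglap3, Postn and Sparc had an entry among these promoters.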

How the data were processed

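Osteocyte RNA-seq libraries of 5 No MM and 5 MM mice were grouped by the sample labels. The authors deposited whole read counts for each gene, which were the input here. The other deposited columns were left unused. They hold a signal (counts over size factors), FPKM, and log2 fold changes with p-values of the authors' comparison. The submitters' processing notes name FastQC 0.11.5 and STAR. The counting program and genome build are not given in the sources used here, and 15230 of 22274 gene identifiers found in GENCODE M21 (GRCm38) had the same coordinates, including 6 of the 9 members. For Sp7, Postn and Sparc, whose coordinates differ, only chromosome and strand are given.

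Counts were filtered (filterByExpr), scaled by TMM factors and fitted with glmQLFit (edgeR 4.0.16, R 4.3.3) for glmQLFTest, without covariates, adjusted by Benjamini-Hochberg over 16186 genes. At 31099174 to 39466332 counts per library, 3 counts equal 0.0709 to 0.114 CPM. Log2 CPM used a prior count of 2 and log2 ratios a pseudocount of 0.5. Shares and ratios were compared by exact permutation tests (scipy 1.17.1) over 252 assignments of mice, or 56 without No MM 3 and No MM 4. The fit was tested on simulated data. Alternatives were DESeq2 1.42.0, RLE and upper quartile factors, 1 surrogate variable (sva 3.50.0), no filter, a minimum of 10 counts per library, immunoglobulin genes left out, No MM 3 and No MM 4 left out, each mouse left out in turn, a pseudocount of 5, and osteocyte markers as the reference.

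The members and gene lists were chosen with earlier results of these data known. The named genes were the members, Col1a1 and Col1a2, the osteocyte markers, per list the 2 genes with the largest positive and the 2 with the largest negative fold change at a mean of at least 1 CPM, and per member the 3 genes with the highest Pearson's r. One gene of the osteocalcin list was not analysed here. One gene that this rule names is not reported here. P-values set a difference between the groups against the spread between these mice.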

Additional observations from a re-analysis of the deposited data

Results flagged for a closer look

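Of 56 values tested for a mouse far from the other 4 of its group, 5 stood apart, where chance gives about 1 in 20, or 2.8. All 5 rest on overlapping osteocalcin reads. In MM 6, Bglap was at 693.78 CPM, against 180 to 286 CPM in the other MM mice. Bglap2 was at 505.71 CPM in MM 6, against 123 to 209 CPM. Summed osteocalcin was at 1201.3 CPM in MM 6, against 304 to 495 CPM. Without MM 6, the log2 fold change was -0.35 for Bglap, -0.46 for Bglap2 and -0.39 for the sum. In MM 9, the share of osteocalcin reads on Bglap3 was 0.35851%, from 43 counts, against 0.109% to 0.180% in the other MM mice. In MM 10, summed osteocalcin over Sparc was -3.9211 on the log2 scale, against -3.23 to -3.03.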

How the results depend on the processing

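No paired analysis was run because mice are numbered 1 to 5 in No MM and 6 to 10 in MM, and the labels give no pairs. The authors call their own comparison a paired differential analysis. Under DESeq2, RLE or upper quartile factors, other filters and a table without immunoglobulin genes, every member kept its direction and stayed short of the threshold. Over all genes, edgeR called 0 at an adjusted p under 0.05, against 617 higher and 1664 lower in MM at an unadjusted p under 0.05 and 32 higher and 192 lower by DESeq2. With 1 surrogate variable the log2 fold change was -0.026 for Runx2, -0.22 for Sp7, -0.26 for Dlx3, -0.30 for Bglap, -0.36 for Bglap2, -0.39 for Postn and -0.33 for summed osteocalcin. Without No MM 3 and No MM 4 it was -0.16, -0.42, -0.42, -0.59, -0.65, -0.57 and -0.62 in the same order. With each mouse left out in turn, the log2 fold change ranged from -0.14 to 0.62 for Sp7, -0.14 to 0.37 for Dlx3, -0.35 to 0.75 for Bglap, -0.46 to 0.60 for Bglap2, -0.45 to 0.48 for Postn, -0.46 to 0.24 for Sparc and -0.39 to 0.69 for summed osteocalcin. The lowest adjusted p of any member in these fits was 0.329, for Runx2 without No MM 5. The share of Bglap ranged from 2.16 to 4.10 percentage points higher in MM. Relative to type I collagen, the difference ranged from -0.59 to 0.12 for Runx2 and -0.61 to 0.22 for Dlx5, and between members from -0.13 to 0.30 for Sp7 over Runx2 and -0.33 to 0.18 for Postn over Sparc.

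Without No MM 3 and No MM 4 together, the share of Bglap3 was higher in MM by 0.0755 points. The difference relative to collagen was then 0.50 for Runx2, 0.17 for Sp7, 0.12 for Dlx3, 0.64 for Dlx5, -0.017 for Bglap, -0.13 for Bglap2 and 0.56 for Bglap3. It was -0.33 for Sp7 over Runx2, -0.23 for osteocalcin over Sp7 and -0.56 for osteocalcin over Runx2. With osteocyte markers as the reference, the difference was 0.50 for Runx2, 0.61 for Sp7, 0.39 for Dlx3, 0.58 for Dlx5, 0.38 for Postn and 0.45 for Sparc. It was 1.18 for Bglap, 1.06 for Bglap2 and -0.51 for Bglap3, which kept their direction. The adjusted p of the exact permutation test with this reference was 0.440 to 0.524 over the members. The cause of these changes was not tested. At 14 to 70 counts per library, Bglap3 is the member whose values depth limits most.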
